A study of Mus musculus with 6 samples.

Results

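Uncultured mouse bone marrow was compared gene by gene with macrophages grown from bone marrow over 7 days in macrophage colony-stimulating factor (M-CSF). The comparison used 2 of the 6 RNA libraries of the study. The marrow library (BM) came from C57BL/6 bone marrow cells and the macrophage library (M-BMDM) from C57BL/6 marrow cultured with M-CSF, both with an age label of 8 weeks, both labelled as controls and neither given interleukin-6 (IL6). The other 4 libraries were GM-BMDM, macrophages from a culture with granulocyte-macrophage colony-stimulating factor, GM-BMDM treated with IL6 for 3 h, and M-BMDM treated for 3 h or 24 h. Total RNA was sequenced, and each group had 1 library. The labels do not say how many mice gave each library or whether cells were pooled. Members of the comparison were the 55536 rows of the deposited table that carried a gene name, of 56278 rows in all. Of these, 14719 reached a CPM of 1 (the usual depth-scaled count, with the scale described under processing) in at least 1 of the 6 libraries and were analysed. The named rows held 21484966 counts in BM and 18511777 in M-BMDM.

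M-CSF is the ligand of the receptor tyrosine kinase CSF1R, and marrow progenitors and monocytes kept in it survive, attach and become large phagocytes. Macrophages take up particles, dead cells and lipoproteins, break them down in acid lysosomes and then store, export or burn the products, so that uptake receptors, lysosomal enzymes and lipid handling are linked in this cell. Bone marrow as it comes from the bone is a mixture of maturing neutrophils, red cell precursors, B lineage cells and fewer stem, stromal and other cells.

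Because BM is such a mixture, a gene can be lower in M-BMDM when fewer cells carry it or when each cell holds less of its RNA. A gene can likewise be higher when more cells carry it or when each cell holds more of its RNA. In bulk RNA these cannot be told apart. The markers followed the labels, with 1 gap on the macrophage side. In M-BMDM, 9 of 10 macrophage markers were higher, and only Mertk, a receptor for dying cells, was not, at 11.4 CPM in BM and 7.68 CPM in M-BMDM. All 13 neutrophil markers, all 5 neutrophil precursor markers, all 11 erythroid markers and all 11 B lineage markers were lower. So were all 10 eosinophil, basophil and mast cell markers, 7 of 8 stem and progenitor markers, all 7 dendritic markers, 7 of 9 stromal and endothelial markers, 6 of 11 T and natural killer cell markers, 5 of 7 megakaryocyte markers, 2 of 4 plasma cell markers and 4 of 6 monocyte markers. The summed level of the neutrophil markers was 40110 CPM in BM and 112.2 CPM in M-BMDM, and that of the erythroid markers was 83100 CPM and 13.85 CPM. Single genes of other lists stood higher in M-BMDM: Sdc1, a heparan sulphate proteoglycan used as a plasma cell marker (12.6 and 443 CPM), Il7r (34.9 and 162 CPM), Vwf (64.1 and 171 CPM) and Kdr (4.98 and 28.0 CPM). The plasma cell genes Jchain and Mzb1 and the T cell gene Cd3d were lower in the same library.

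The call for a gene was higher or lower where its 2 scaled counts differed at least 2-fold, the exact 95% Clopper-Pearson interval of the ratio excluded 1 and the higher library held at least 5 CPM. By this rule 2260 genes were higher in M-BMDM (15.4% of those analysed) and 2587 were lower (17.6%), so a list of genes is read against these shares. Genes at least 8-fold apart numbered 490 among the higher and 1047 among the lower, and 262 of the lower genes had no count in M-BMDM. Genes counted higher made up 47.4% of the M-BMDM library, and genes counted lower made up 36.1% of the BM library. Higher genes were 46.6% of all genes counted. With total counts that leave out the neutrophil, erythroid and B lineage markers as the scale, which shifts every log2 ratio by -0.393, they were 30.1%, with 1557 higher and 3622 lower. Scaling by all counts shifted the log2 ratios by -0.169. With 1 library a side there is no replicate check and no p-value, and the intervals cover counting error only.

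**Figure D1:**
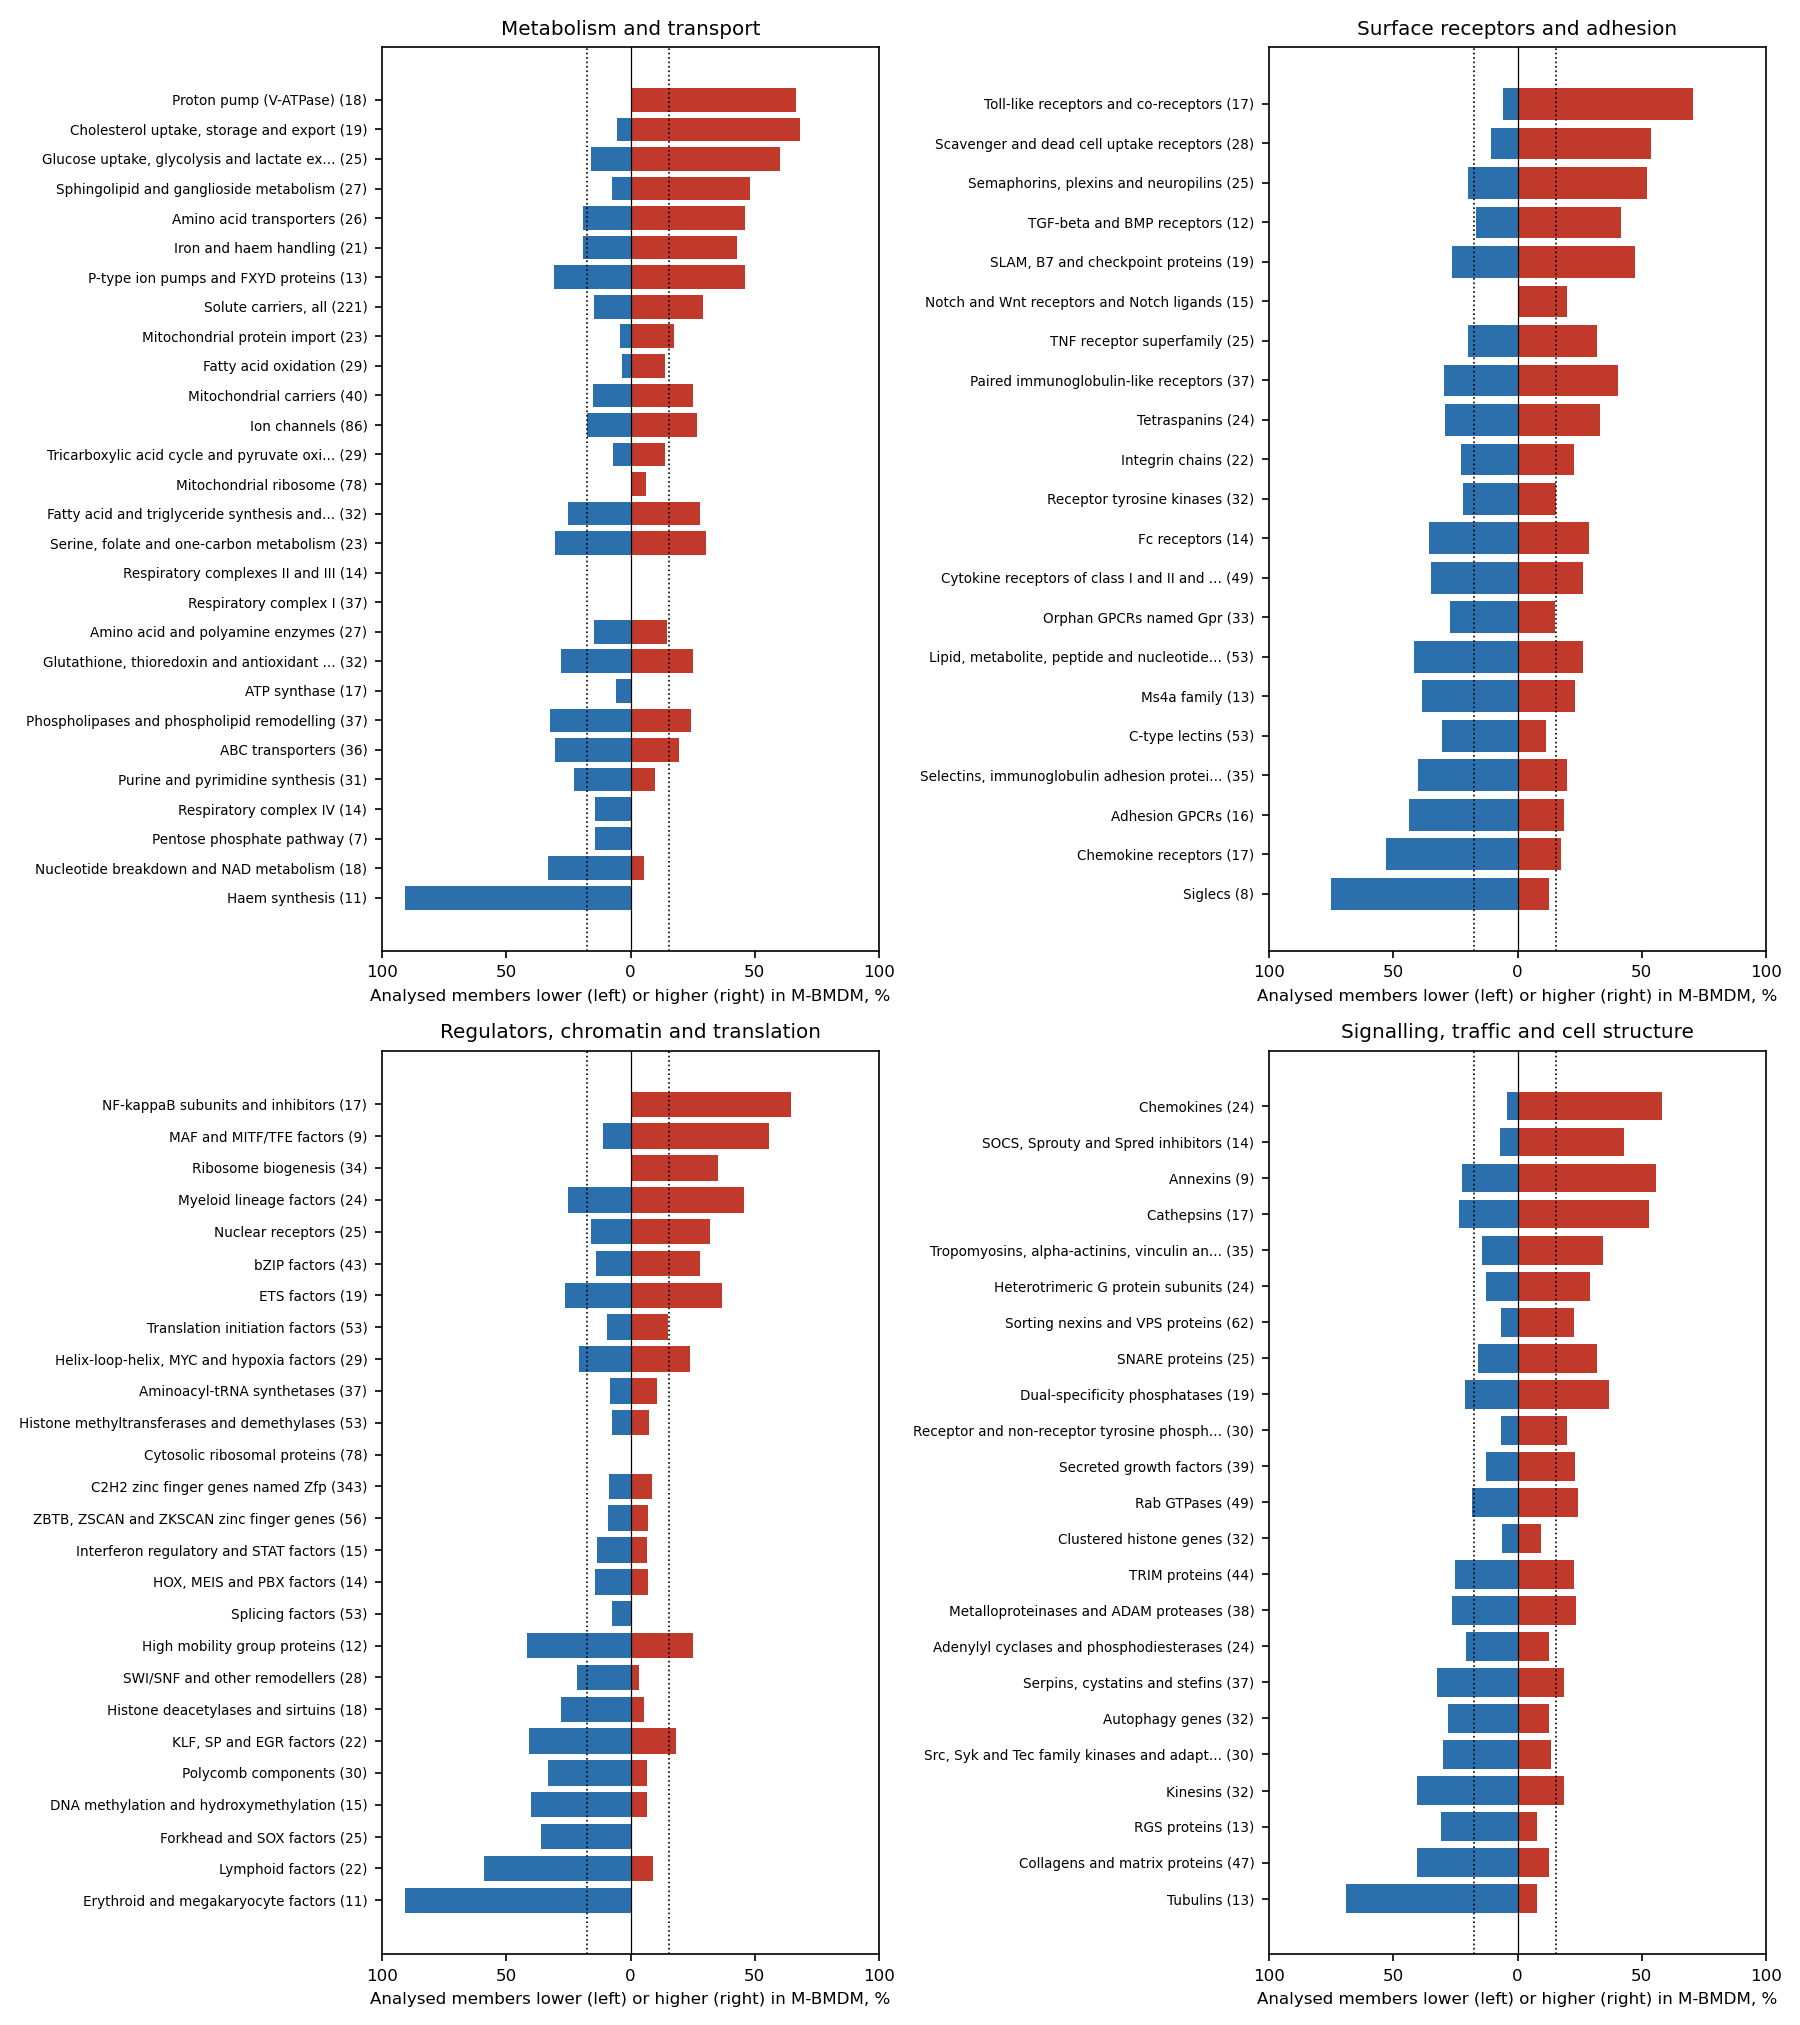
Share of the analysed members of the plotted gene lists that were higher (red, to the right) or lower (blue, to the left) in M-BMDM than in BM, in percent, with the number of analysed members in brackets and dotted lines at the shares over all analysed genes, 15.4% and 17.6%. The proton pump, cholesterol, Toll-like receptor and NF-kappaB lists reach far to the right, and haem synthesis, Siglecs, erythroid factors and tubulins far to the left, while complex I and the ribosomal proteins have no bar.

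Genes of glucose use were mostly higher, and some carriers and isoforms of the same step went opposite ways. In M-BMDM, 15 of the 25 genes for glucose uptake, glycolysis and lactate export were higher and 4 were lower, with a median log2 ratio of 1.29 against -0.067 over all analysed genes. Their summed level was 6338 CPM in BM and 11870 CPM in M-BMDM. The glucose carrier Slc2a1 (GLUT1) had 21.7 CPM in BM and 379 CPM in M-BMDM, a log2 ratio of 4.12 (95% counting interval 3.997 to 4.255). Its relative Slc2a3 (GLUT3) went the other way, from 255 CPM to 28.8 CPM. Per length, Slc2a3 was the higher of these carriers in BM (114 TPM, a level scaled by gene length and depth, against 11.8 for Slc2a1), and Slc2a1 was the higher in M-BMDM (236 against 14.8). The lactate carriers also differed in direction: Slc16a3 (MCT4) was higher, at 108 and 274 CPM, and Slc16a1 (MCT1) was lower, at 166 and 33.2 CPM. Among the phosphofructokinases, the platelet and liver forms Pfkp (51.2 and 175 CPM) and Pfkl (48.9 and 146 CPM) were higher, and the muscle form Pfkm (29.9 and 6.98 CPM) was lower. Eno2 and Aldoc, isoforms of enolase and aldolase best known from neurons, were the list's most raised members, with log2 ratios of 6.44 and 5.29. Eno2 had only 3 counts in BM, and its interval ran from 4.87 to 8.73. Hexokinase 2 (Hk2) was higher at 85.6 and 216 CPM, but its log2 ratio of 1.33 was 0.94 with the scaling that leaves out the lineage markers. The wider glycolysis and gluconeogenesis pathway that the deposited table assigns to 71 analysed genes leaned much less, with 15 higher and 10 lower.

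The respiratory chain stood apart from this by staying level relative to the library. None of the 37 complex I genes and none of the 14 genes of complexes II and III was higher or lower, and their median log2 ratios were -0.01 and 0.08. Complex IV had 2 lower genes of 14, both minor isoforms: Cox6b2, the testis form of a small subunit, with 14.8 CPM in BM, and Cox6a2, the muscle form, with 5.51 CPM. Of 17 ATP synthase genes 1 was lower. Cytosolic ribosomal proteins were equally level, with 0 of 78 counted and a median of -0.30. Of 78 mitochondrial ribosomal proteins 5 were higher and none lower, led by Mrps6 at 4.44 and 20.5 CPM, but with the lineage markers left out of the scale the list had 1 more lower than higher gene. The 23 genes of mitochondrial protein import, 4 of them higher and 1 lower, turned in the same way. Of 40 mitochondrial carriers 10 were higher and 6 lower, among them Slc25a4, which exchanges ADP and ATP (38.8 and 115 CPM), and Slc25a38, which serves haem synthesis (80.3 and 12.6 CPM).

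Around the tricarboxylic acid cycle, 23 of 29 genes were neither higher nor lower, 4 were higher and 2 lower. Acod1, which makes itaconate from the cycle intermediate aconitate, had 6.13 CPM in BM and 1548 CPM in M-BMDM, 252-fold higher. Me1, the cytosolic malic enzyme that yields NADPH, had 4 counts in BM (0.165 CPM) and 25.6 CPM in M-BMDM. The mitochondrial malic enzyme Me2 (82.7 and 27.9 CPM) and pyruvate carboxylase Pcx (26.4 and 7.25 CPM) were lower. Malic enzyme differed in opposite directions in cytosol and mitochondrion. The other 2 higher genes were the citrate carrier Slc25a1 (25.7 and 66.9 CPM) and Idh1, the cytosolic isocitrate dehydrogenase, whose log2 ratio of 1.00 lay at the limit of the call. The pentose phosphate pathway had 1 lower gene of 7, Rpia, and none higher.

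Genes of fatty acid and triglyceride handling went both ways. The list for fatty acid and triglyceride synthesis and lipid droplets held 9 higher and 8 lower genes of 32. Lipoprotein lipase (Lpl), which frees fatty acids from lipoproteins, had 38.3 CPM in BM and 1444 CPM in M-BMDM, 37.7-fold higher. The fatty acid binding protein Fabp5 (18.4 and 451 CPM), the droplet coat protein Plin2 (54.8 and 962 CPM) and the fatty acid receptor Cd36 (74.9 and 579 CPM) were higher as well. Lower were Dgat2, which adds the last fatty acid to a triglyceride (43.7 and 0.967 CPM), monoglyceride lipase Mgll (68.7 and 5.91 CPM) and G0s2, an inhibitor of triglyceride breakdown, which had 28.2 CPM in BM and 1 count in M-BMDM. Fatty acid synthase (Fasn) was neither, at 68.5 and 118 CPM, and so was Cpt1a, the gate of mitochondrial fatty acid oxidation, at 93.2 and 142 CPM. Of 29 fatty acid oxidation genes 4 were higher and 1 lower, and that balance turned with other scalings: with total counts 1 more gene was lower than higher. Phospholipases and phospholipid remodelling had 9 higher and 12 lower genes of 37, with the lysosomal Pld3 at 73.9 and 528 CPM and the granulocyte gene Plbd1 at 303 and 4.67 CPM.

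Cholesterol handling leaned further than any other lipid list. Of 19 genes for cholesterol uptake, storage and export, 13 were higher and 1 lower, with a median log2 ratio of 2.43. Apoe, the apolipoprotein that macrophages secrete with cholesterol, went from 312 to 4690 CPM. The lysosomal lipase Lipa, which frees cholesterol from its esters, had 51.9 and 878 CPM. Ch25h, which makes 25-hydroxycholesterol, had no count in BM and 25.8 CPM in M-BMDM, at least 209-fold higher against 3 counts in BM. The oxysterol receptor LXR alpha (Nr1h3) had 2.63 and 33.6 CPM, and the exporter Abca1 had 23.7 and 208 CPM. The only lower member was Abcg1, the companion exporter, with 48.0 CPM in BM and 16.3 CPM in M-BMDM. In the libraries not compared here Abcg1 stood at 145 CPM in M-BMDM with IL6 for 24 h and at 376 CPM in GM-BMDM.

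Of 27 sphingolipid and ganglioside genes 13 were higher and 2 lower. Smpdl3b, a phosphodiesterase related to acid sphingomyelinase, had the highest ratio, at 1.73 and 35.8 CPM. Alpha-galactosidase (Gla) had 8.23 and 121 CPM, and prosaposin (Psap), the precursor of the activator proteins for these enzymes, had 1558 and 9017 CPM. The lower ones were Sphk1, which phosphorylates sphingosine (33.2 and 0.805 CPM), and the sphingomyelin synthase Sgms2 (77.1 and 16.7 CPM). The vacuolar proton pump that acidifies lysosomes had 12 of 18 analysed genes higher, none lower and a median log2 ratio of 1.19. Its most raised member was Atp6v0d2, an osteoclast and macrophage form of a membrane subunit, at 1.77 and 28.9 CPM; GM-BMDM held 847 CPM of it. The more general subunits moved by less: Atp6v1c1 had 47.2 and 200 CPM and the catalytic Atp6v1a had 103 and 435 CPM. The related subunit Atp6v0d1 was neither, at 94.3 and 147 CPM. Of 17 cathepsins, the lysosomal proteases, 9 were higher. They were led by Ctsl (31.8 and 822 CPM), Ctss (153 and 2858 CPM), Ctsd (547 and 10110 CPM) and Ctsb (653 and 11720 CPM). The 4 lower ones were Ctsg, a protease of neutrophil granules, Ctse (834 and 47.3 CPM), Ctsw and Ctsk.

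The element TCACGTGA, the core of the CLEAR box that factors of the MITF/TFE group bind in lysosomal genes, was searched on both strands of RefSeq promoters (GRCm38.p6, 250 bases before to 50 after the start, 1 promoter a gene). The sequence reads the same on both strands. Promoters were matched by symbol for 10692 of the 14719 analysed genes. The core was present in 3 of the 12 matched proton pump promoters: Atp6v1a, Atp6v0e and Atp6v0d1. It was present in 1 of 22 matched sphingolipid promoters (4.5%), that of Gla, and in 1 of 13 matched cathepsin promoters (7.7%), that of Ctsd. Among all matched genes 1.9% had it, among genes counted higher 1.8% and among genes counted lower 1.1%. Shown here, as examples chosen because they hold the core and the genes were higher, are the 250 bases before the start of a pump, a sphingolipid hydrolase and a protease gene, written 5′ to 3′ on the gene's strand (minus for all 3) with the core in capitals.
Atp6v1a: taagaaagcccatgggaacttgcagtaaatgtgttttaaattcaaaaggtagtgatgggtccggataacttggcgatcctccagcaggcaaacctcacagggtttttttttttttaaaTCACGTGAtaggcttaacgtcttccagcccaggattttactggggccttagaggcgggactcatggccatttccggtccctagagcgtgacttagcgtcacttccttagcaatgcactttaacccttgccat
Gla: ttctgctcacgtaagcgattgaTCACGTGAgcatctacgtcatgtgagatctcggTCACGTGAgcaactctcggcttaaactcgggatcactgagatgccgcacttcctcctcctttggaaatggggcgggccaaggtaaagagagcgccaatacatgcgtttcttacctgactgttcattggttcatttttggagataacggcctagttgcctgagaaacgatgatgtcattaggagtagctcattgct
Ctsd: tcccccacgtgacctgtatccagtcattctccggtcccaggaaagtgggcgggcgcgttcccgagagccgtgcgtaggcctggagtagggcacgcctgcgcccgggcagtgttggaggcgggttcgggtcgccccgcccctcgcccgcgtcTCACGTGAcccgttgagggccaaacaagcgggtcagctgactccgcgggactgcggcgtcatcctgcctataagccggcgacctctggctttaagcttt
The Atp6v1a stretch lies at chr16:44139260-44139509, that of Gla at chrX:134601006-134601255 and that of Ctsd at chr7:142387828-142388077. The core begins 132 bases before the start in Atp6v1a, 228 and 195 bases before it in Gla, which has 2 copies, and 99 bases before it in Ctsd. A match describes the letters and does not show binding.

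Other promoter elements were counted in the same way. E2F elements were found in 0.3% (TTTGGCGC) and 0.9% (TTTCCCGC) of promoters of higher genes and in 1.6% and 3.2% of those of lower genes, against 1.0% and 2.1% of all matched genes. The AP-1 element TGANTCA was in 7.5% of promoters of higher genes, 5.7% of those of lower genes and 5.5% of all. The GATA element AGATAA was in 5.2%, 8.9% and 6.8% in the same order, and the PU.1/ETS element GAGGAAGT in 4.0%, 4.1% and 3.5%. The interferon response element (2 GAAA repeats set 2 bases apart) was in 4.3%, 3.3% and 3.3%, and the NRF1 element in 1.6%, 1.6% and 2.0%. Each was sought on both strands, and no test was made.

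Amino acid carriers leaned higher, with some members lower. Of 26 amino acid transporters 12 were higher and 5 lower. The arginine and lysine carrier Slc7a2 had 2.22 CPM in BM and 210 CPM in M-BMDM, a log2 ratio of 6.56 (interval 6.18 to 6.98). The neutral amino acid exchanger Slc7a8 (20.3 and 716 CPM) and the cystine importer Slc7a11 (6.71 and 110 CPM) were higher too. The neutral carriers Slc43a1, with 124 CPM in BM and 1 count in M-BMDM, and Slc38a5, with 53.0 CPM in BM and no count in M-BMDM, were lower, and so was the glutamine carrier Slc1a5 at 246 and 73.6 CPM. Slc38a5 had no count in any of the 5 cultured libraries. Over all solute carriers 64 of 221 were higher and 33 lower, the highest ratio being that of the creatine carrier Slc6a8 (1.61 and 257 CPM). Arg1, which splits arginine, was higher from a very low base (0.165 and 5.64 CPM), and the aspartate transaminase Got1 had 20.3 and 97.0 CPM. Amino acid and polyamine enzymes as a list were balanced, with 4 higher and 4 lower of 27.

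Nucleotide and folate genes did not move as a group. For purine and pyrimidine synthesis 3 of 31 genes were higher and 7 lower (22.6%, against 17.6% over all genes), including both ribonucleotide reductase chains Rrm1 (340 and 44.9 CPM) and Rrm2 (335 and 18.0 CPM) and the dUTPase Dut (92.0 and 4.73 CPM). Serine, folate and one-carbon metabolism had 7 higher and 7 lower genes of 23. Thymidylate synthase Tyms was lower (56.4 and 3.44 CPM). The folate receptor Folr2 (0.494 and 19.4 CPM) and the folate carrier Slc46a1 (1.19 and 10.4 CPM) were higher, and so was Gcsh, a protein of the glycine cleavage system (9.71 and 89.7 CPM). Nucleotide breakdown and NAD metabolism had 1 higher and 6 lower genes of 18, and the nicotinate and nicotinamide pathway of the deposited table had 3 higher and 9 lower of 28. The NAD synthesis enzyme Nampt was the higher gene of the list (61.6 and 185 CPM), and the NAD-consuming enzyme Cd38 was among the lower ones (29.0 and 1.07 CPM). Genes that the deposited table assigns to DNA replication were counted lower in 29 of 36 cases, with none higher.

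Haem synthesis genes were lower, and genes of iron and haem handling went both ways, with 9 of 21 higher and 4 lower. All but 1 of 11 haem synthesis genes were lower, led by the erythroid enzyme Alas2 (1313 and 0.161 CPM). The transferrin receptor Tfrc had 439 CPM in BM and 84.8 CPM in M-BMDM. The ferritin chains Fth1 (995 and 15650 CPM) and Ftl1 (1462 and 9776 CPM) were higher, and so was the phagosomal iron pump Slc11a1 (47.7 and 460 CPM). Slc40a1, the iron exporter ferroportin, was lower, at 187 and 11.4 CPM. Both erythroid cells and macrophages of marrow are known to carry Slc40a1, and which of them gave the BM level was not tested. Antioxidant genes were split, with 8 higher and 9 lower of 32. Srxn1 (13.3 and 380 CPM), the mitochondrial dismutase Sod2 (41.5 and 806 CPM) and Prdx1 (121 and 1448 CPM) were higher. The peroxidases Prdx2 (497 and 124 CPM) and Gpx1 (1286 and 378 CPM), both abundant in red cell precursors, were lower.

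Of 13 ion pump genes 6 were higher and 4 lower. Fxyd2, a small regulator of the sodium pump, had 1 count in BM and 178 CPM in M-BMDM, the highest log2 ratio among the members of the metabolic lists at 12.08 (interval 9.60 to 17.38). The sodium pump's beta chain Atp1b3 was higher (113 and 461 CPM), while the beta chain Atp1b1 had 89.5 CPM in BM and 1 count in M-BMDM. Of the ABC transporters 7 of 36 were higher and 11 lower. Abcb1a and Abcc3, both drug and metabolite exporters, were the most raised, at 0.905 and 17.7 CPM and at 9.38 and 151 CPM. Of the ion channels 23 of 86 were higher and 15 lower, led by the potassium channel Kcnk13 (2.30 and 112 CPM) and the lysosomal cation channel Mcoln3 (0.576 and 20.6 CPM).

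**Figure D2:**
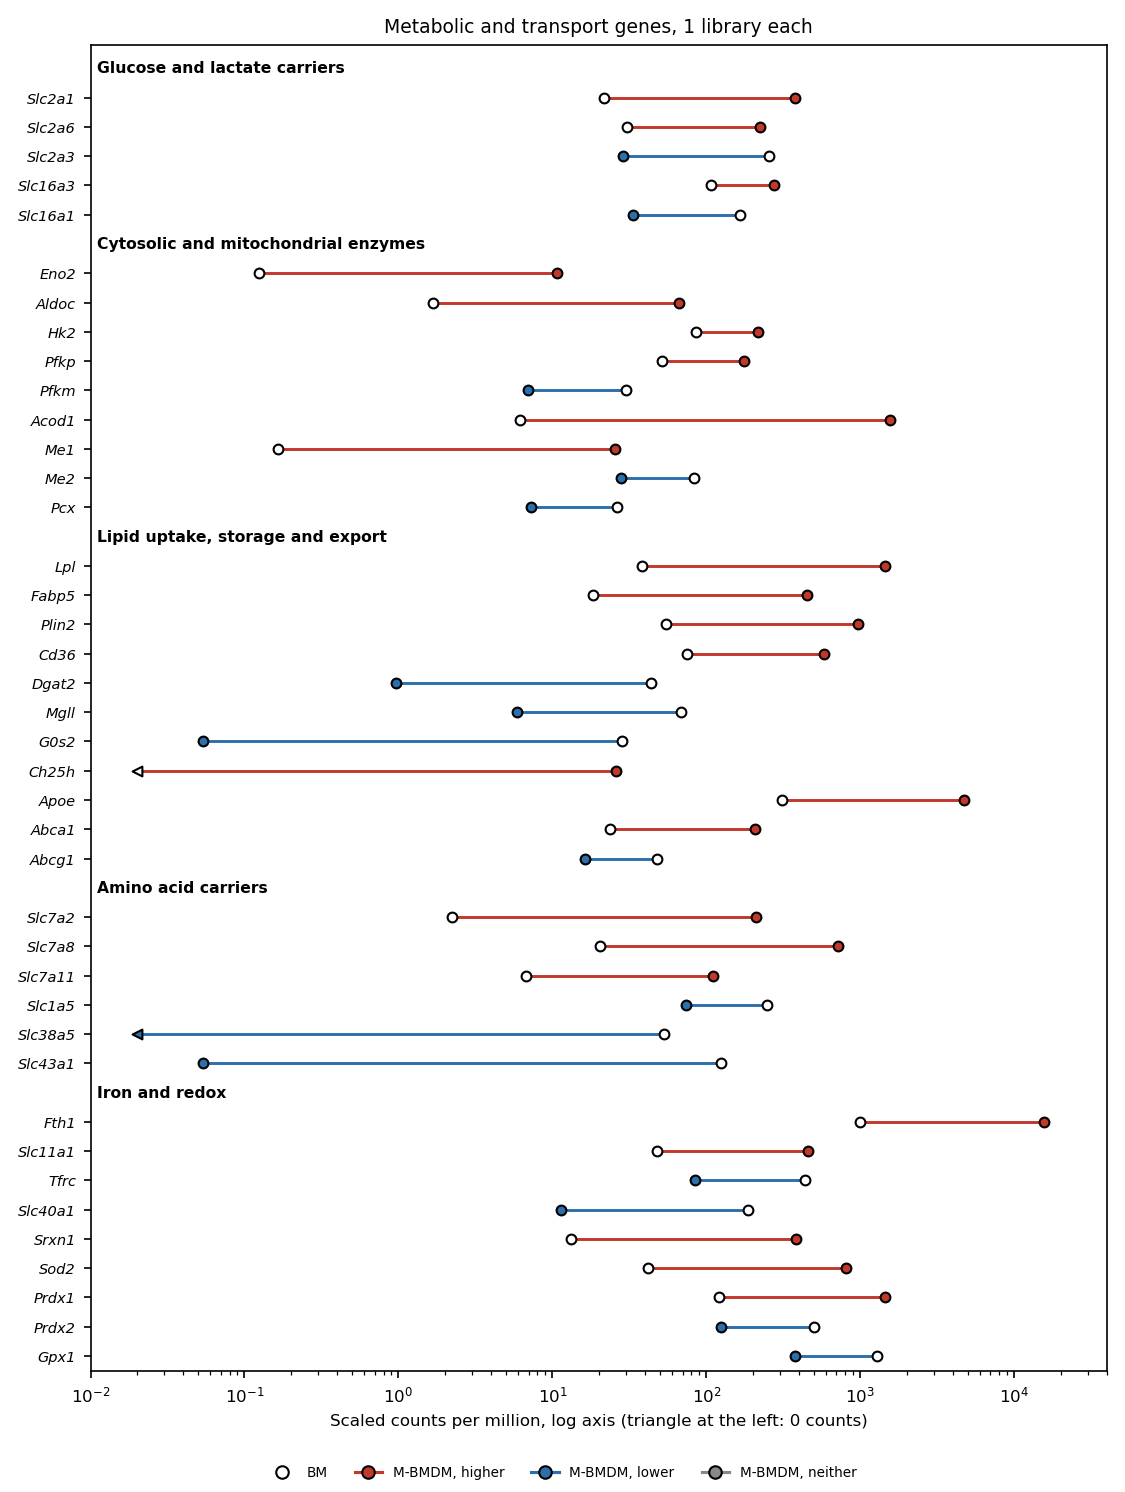
Scaled CPM on a log axis of 40 metabolic and transport genes in BM (open points) and M-BMDM (filled points; red where counted higher, blue where lower), 1 library each, with a triangle at the left edge for 0 counts. Within each block some members stand higher and others lower in M-BMDM, as with Slc2a1 and Slc2a3 or Abca1 and Abcg1.

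Chemokine receptors were more often lower than higher, with 9 of 17 lower and 3 higher. Cxcr2, which draws neutrophils to sites of infection, had 246 CPM in BM and 0.322 CPM in M-BMDM. Ccr2, which lets monocytes leave the marrow, had 184 and 4.62 CPM. Cxcr4, which holds cells in the marrow, had 269 and 45.9 CPM, and its ligand Cxcl12, a product of marrow stroma, had 318 and 0.376 CPM. The fractalkine receptor Cx3cr1 was the most raised of the group, with 34.4 and 388 CPM, a log2 ratio of 3.49 (interval 3.39 to 3.60). In GM-BMDM Cx3cr1 stood at 5.15 CPM.

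Receptors for complement, nucleotides and lipid messengers went both ways, with 14 higher and 22 lower of 53. The receptor for complement fragment C3a, C3ar1, had 3.70 CPM in BM and 1067 CPM in M-BMDM, 288-fold higher. The C5a receptor C5ar1, which neutrophils also carry, had 104 and 1043 CPM, and the UDP receptor P2ry6 had 4.86 and 199 CPM. Adra1a, an adrenergic receptor, had no count in BM and 15.4 CPM in M-BMDM, at least 125-fold higher. Lower were the leukotriene B4 receptor Ltb4r1 (117 and 0.215 CPM), the sphingosine phosphate receptor S1pr4 (70.5 CPM and no count) and the short-chain fatty acid receptor Ffar2 (25.1 CPM and no count). Sphingosine phosphate receptors were thus not of 1 direction, since S1pr2 was higher at 10.7 and 87.5 CPM. Receptors named Gpr had 5 higher and 9 lower genes of 33, and among them the medium-chain fatty acid receptor Gpr84 (12.4 and 394 CPM) and the lysosomal Gpr137b (13.3 and 237 CPM) were the most raised. Adhesion G protein-coupled receptors had 3 higher and 7 lower genes of 16. The macrophage marker Adgre1 (F4/80) was higher, at 64.1 and 896 CPM, and Adgrg3, a gene of neutrophils, was lower, at 119 and 2.42 CPM.

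Toll-like receptors and their co-receptors were mostly higher. Of 17 Toll-like receptors and co-receptors 12 were higher and 1 lower, with a median log2 ratio of 1.23. Cd14, the co-receptor for lipopolysaccharide, had 7.36 and 1506 CPM, and Tlr2 had 43.1 and 524 CPM. The lipopolysaccharide receptor Tlr4 itself differed less, at 26.6 and 100.3 CPM, and the double-stranded RNA receptor Tlr3 had 1.23 and 16.6 CPM. The lower member was Tlr12, with 5.14 CPM and no count. C-type lectins as a family did not lean higher: 6 of 53 were higher and 16 lower. The higher ones were led by Clec4e (Mincle, 39.9 and 1095 CPM) and Clec4d (43.2 and 648 CPM), neighbouring genes for receptors of mycobacterial glycolipids. The lower ones included Cd209a and Klrk1 from dendritic and natural killer cells. With a limit of 20 CPM the lectin count was 1 more higher than lower.

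Uptake receptors leaned higher as well. Of 28 scavenger and dead cell uptake genes 15 were higher and 3 lower. Stab1 had 8.93 and 1036 CPM, Msr1 had 9.13 and 498 CPM, and Cxcl16, a membrane-bound chemokine that also takes up oxidised lipoprotein, had 1.36 and 352 CPM. Stab2, the relative of Stab1 found on marrow sinus endothelium, was lower (12.2 and 0.376 CPM), and so was Cd5l, a protein of tissue macrophages (38.4 and 2.20 CPM). Of 37 paired immunoglobulin-like receptors 15 were higher and 11 lower. The lipid sensor Trem2 had 4.86 and 602 CPM and Cd300ld4 had 0.206 and 52.1 CPM, while Treml2 (134 and 5.21 CPM) and Trem3 (102 and 3.92 CPM) were lower. Counts for the Cd300ld and Lilr genes, which have near-identical neighbours, are uncertain. Fc receptors had 4 higher and 5 lower genes of 14: the high-affinity IgG receptor Fcgr1 had 8.31 and 255 CPM and Fcrls had 0.494 and 47.7 CPM, and the B cell genes Fcrla and Fcmr were lower. Siglecs had 1 higher gene of 8, the macrophage sialoadhesin Siglec1 (25.3 and 122.9 CPM), and 6 lower.

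Adhesion genes went both ways. Of 22 integrin chains 5 were higher, 5 lower and 12 neither. The fibronectin receptor chain Itga5 (23.1 and 642 CPM) and the vitronectin receptor chain Itgav (21.2 and 356 CPM) were higher, together with their partners Itgb1 (176 and 850 CPM) and Itgb5 (26.0 and 201 CPM). The leukocyte integrins Itgam (765 and 1021 CPM), Itgax (20.4 and 26.1 CPM) and Itga4 (234 and 202 CPM) were neither. In GM-BMDM Itgax stood at 994 CPM. The platelet chain Itga2b was lower (163 and 0.537 CPM). Selectins, immunoglobulin adhesion proteins and cadherins were more often lower, with 14 of 35 lower, 7 higher and a median log2 ratio of -1.20. Vcam1, which binds leukocyte integrins, had 184 and 2.68 CPM, whereas Icam1 had 14.8 and 229 CPM. Pcdh7, a protocadherin, was the most raised of them, at 1.93 and 244 CPM. Tetraspanins were balanced, with 8 higher and 7 lower of 24: Cd63, a lysosomal member, had 175 and 849.5 CPM, and Tspan33, a gene of red cell precursors, had 159.7 and 0.430 CPM.

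Semaphorins and their receptors, known best from axon guidance, leaned higher. Of 25 semaphorins, plexins and neuropilins 13 were higher and 5 lower, with a median log2 ratio of 1.07. The wider axon guidance pathway of the deposited table did not lean higher, with 23 higher and 22 lower of 133 analysed genes. Nrp2 had 9.79 CPM in BM and 995 CPM in M-BMDM, and Plxna1, a plexin that pairs with neuropilins and with the Trem2 adaptor system, had 12.7 and 782 CPM. The secreted Sema3c had no count in BM and 14.0 CPM in M-BMDM, at least 114-fold higher. Sema7a (19.4 and 0.752 CPM) and Sema4f (13.04 CPM and no count) were lower. The Notch ligand Jag1 was 1 of 3 higher genes among 15 Notch and Wnt genes, none of which was lower although that balance turned with a limit of 1 CPM, at 2.88 and 284 CPM. It stood at 19.5 CPM after 24 h of IL6 and at 14.0 CPM in GM-BMDM.

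Growth factor and cytokine receptors went both ways. Csf1r, the receptor of the culture factor, had 171 and 3234 CPM, a log2 ratio of 4.24 (interval 4.19 to 4.28). The receptor for granulocyte colony-stimulating factor, Csf3r, was lower (554 and 45.1 CPM), as were Kit (62.8 and 4.89 CPM), Flt3 (25.3 and 0.322 CPM) and the erythropoietin receptor Epor (52.8 CPM and 1 count). The shared beta chains Csf2rb (184 and 592 CPM) and Csf2rb2 (42.95 and 608 CPM) were higher, but these are near-identical copies whose split is uncertain, and the alpha chain Csf2ra was neither, at 209 and 280 CPM. The list of class I and II cytokine and interleukin-1 type receptors had 13 higher and 17 lower genes of 49, 1 of the higher being the receptor antagonist Il1rn, which the name pattern also takes. In the tumour necrosis factor receptor family 8 of 25 were higher and 5 lower. Tnfrsf11a (RANK, the receptor for the osteoclast factor RANKL) had 2.18 and 105 CPM and Tnfrsf1b had 103 and 1246 CPM. Of 32 receptor tyrosine kinases 5 were higher (15.6%, against 15.4% over all genes) and 7 lower (21.9%, against 17.6%). The insulin and insulin-like growth factor receptors were lower: Insr had 58.2 and 17.1 CPM and Igf1r had 97.0 and 13.7 CPM, while the ligand Igf1 had 11.9 and 697 CPM. TGF-beta and BMP receptors had 5 higher and 2 lower genes of 12, led by Acvr1 (3.17 and 34.6 CPM). SLAM, B7 and checkpoint proteins had 9 higher and 5 lower of 19, led by Cd28 (3.00 and 45.3 CPM) and Cd276 (0.946 and 14.1 CPM). The Ms4a family had 3 higher and 5 lower of 13, with Ms4a7, known from macrophages, at 6.83 and 206 CPM, and Ms4a3, known from granulocyte and monocyte progenitors, at 106.6 CPM and no count.

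**Figure D3:**
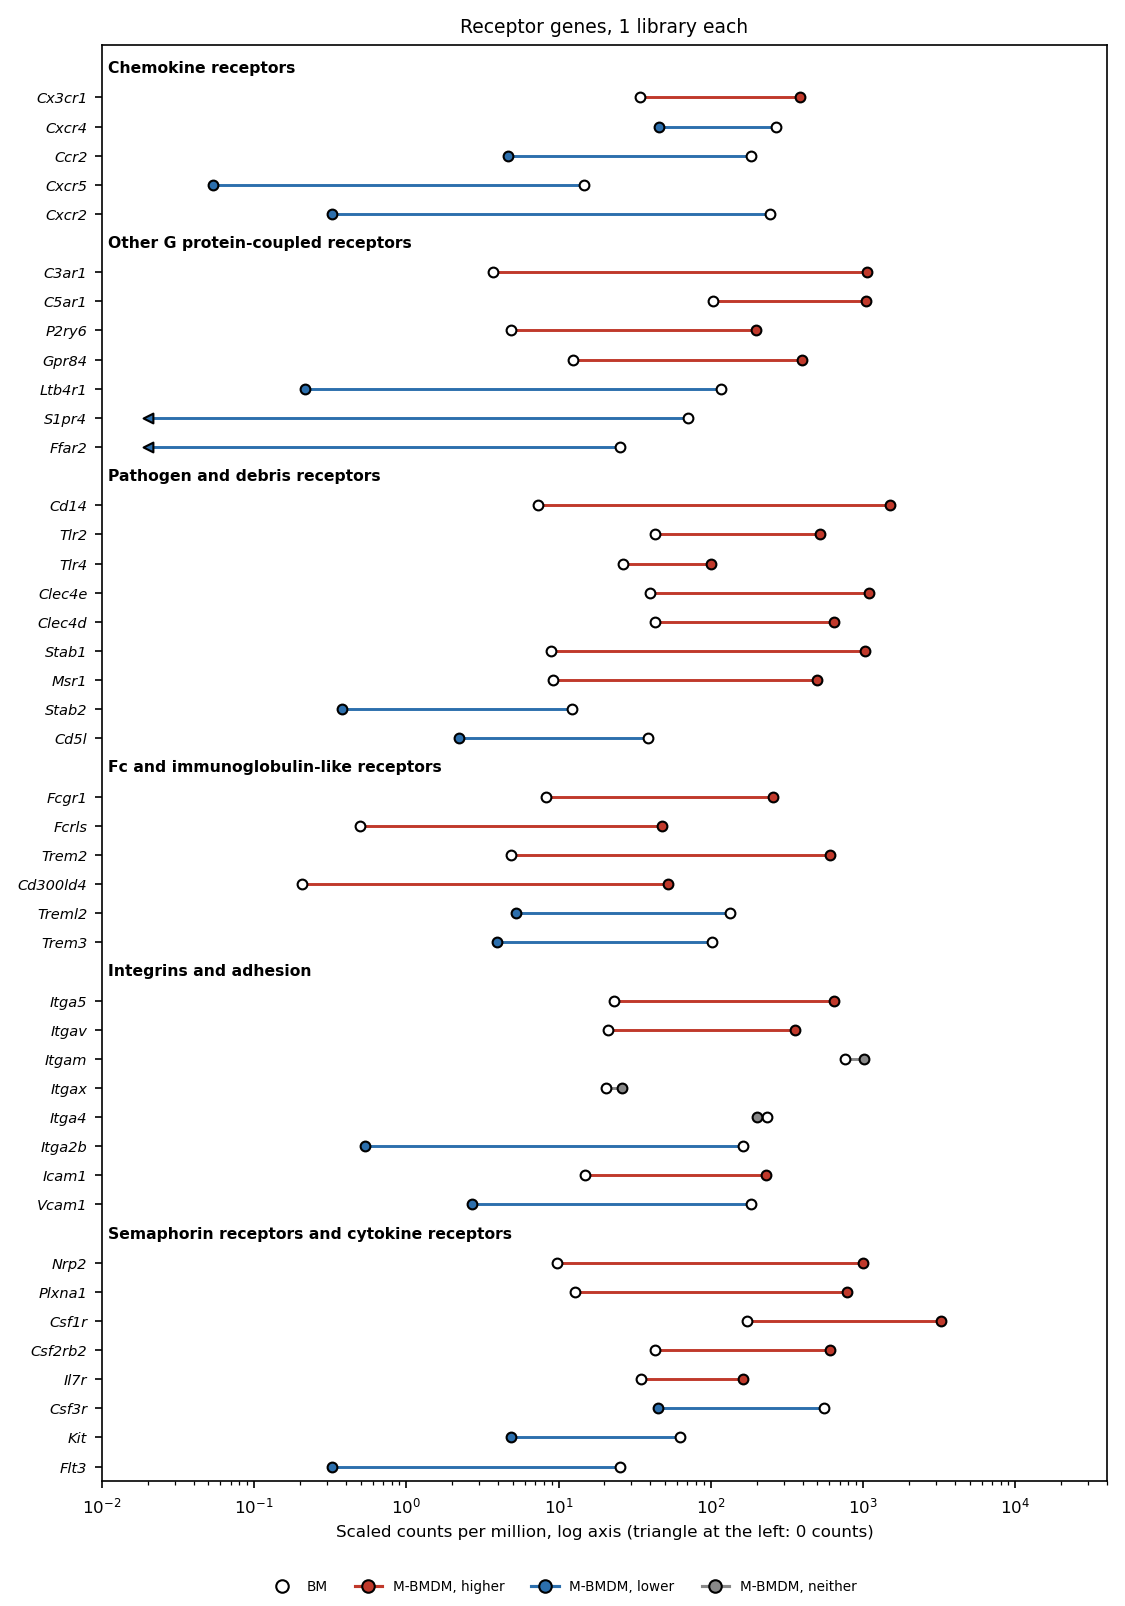
Scaled CPM on a log axis of 43 receptor and adhesion genes in BM (open points) and M-BMDM (filled points; red where counted higher, blue where lower, grey where neither), 1 library each, with a triangle at the left edge for 0 counts. Chemokine receptors lie mostly to the left in M-BMDM, apart from Cx3cr1, and Itgam, Itgax and Itga4 barely separate.

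Regulators of the myeloid lineage split between those that differed and those that were shared with marrow. Of 24 myeloid factors 11 were higher, 6 lower and 7 neither. The macrophage factor Maf was higher (14.8 and 225 CPM), with a log2 ratio of 3.93. Cebpe and Gfi1, which direct neutrophil maturation, were lower, at 147 and 0.376 CPM and at 41.1 CPM and no count. Cebpb, which has been tied to macrophage activation, had 22.1 and 236 CPM, and the hypoxia factor Hif1a had 53.4 and 721 CPM. The pioneer factor of myeloid cells, Spi1 (PU.1), was neither, at 231 and 384 CPM, and neither were Cebpa (61.6 and 68.0 CPM) and Irf8 (218 and 164 CPM). Klf4 (31.4 and 19.5 CPM) and Klf2 (71.5 and 36.3 CPM) were neither, but both passed as lower when the lineage markers were left out of the scale, with log2 ratios of -1.08 and -1.37. The 4 MITF/TFE factors, which bind the CLEAR box, differed from each other. Mitf (5.10 and 114 CPM) and Tfe3 (49.2 and 165 CPM) were higher, Tfeb (46.2 and 20.5 CPM) was lower and Tfec (14.98 and 14.3 CPM) was neither. Together with the MAF factors they made a list of 9 with 5 higher and 1 lower. Per length, Tfeb was the most abundant of them in BM at 35.8 TPM, and Tfe3 in M-BMDM at 103.

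Families of transcription factors differed in direction. Of 43 bZIP factors 12 were higher and 6 lower. Creb5 had 6 counts in BM (0.247 CPM) and 81.9 CPM in M-BMDM. The AP-1 member Fosl1 had no count in BM and 28.5 CPM, at least 231-fold higher, and Atf3 (3.62 and 197 CPM) and Jun (28.2 and 324 CPM) were higher. Nfe2l2, the factor of the oxidative stress response, had 119 and 451 CPM. The erythroid and megakaryocyte member Nfe2 was lower, at 220 and 0.805 CPM. Of 17 genes for NF-kappaB subunits and inhibitors 11 were higher and none lower, with a median log2 ratio of 1.38. Subunits and inhibitors both took part: Nfkb1 had 165 and 430 CPM, the kinase Ikbke had 34.1 and 438 CPM, and the inhibitory partner Tnip3 had 0.617 and 149 CPM. Of 15 interferon regulatory and STAT factors 1 was higher, Irf5 (69.9 and 298 CPM), and 2 were lower, Irf4 and Stat5b. KLF, SP and EGR factors were more often lower, with 4 higher and 9 lower of 22 and a median of -1.03: Egr2 (1.28 and 18.6 CPM) and Klf10 (33.7 and 106.6 CPM) were higher, and Klf5 (22.96 CPM and no count) was lower. Of 25 nuclear receptors 8 were higher and 4 lower, a balance that turned with a limit of 20 CPM. Pparg, the fatty acid sensing receptor, was at 8.23 and 17.4 CPM. Its log2 ratio was 1.08, or 0.687 with the lineage markers left out of the scale. The coactivator Ppargc1b was at 1.56 and 3.11 CPM. Helix-loop-helix, MYC and hypoxia factors were balanced, with 7 higher and 6 lower of 29, and HOX, MEIS and PBX factors had 1 higher and 2 lower of 14.

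Factors of other blood lineages were mostly lower. All but 1 of 11 erythroid and megakaryocyte factors were lower, among them Gata1 (85.3 CPM and no count) and Klf1 (99.4 CPM and 1 count). Of 22 lymphoid factors 13 were lower, led by Spib (215 CPM and 1 count) and Pax5 (137 CPM and 1 count). The 2 higher ones were Prdm1 (2.26 and 20.03 CPM) and Bcl6 (54.4 and 120 CPM), repressors that act in several blood lineages. Bcl6 passed narrowly, and its log2 ratio was 0.98 with total counts as the scale. Of 19 ETS factors 7 were higher, led by Ets2 (32.2 and 418 CPM) and Etv5 (7.86 and 66.2 CPM), and 5 were lower, led by Spib and Erg. No forkhead or SOX factor of 25 was higher, and 9 were lower. Large families of zinc finger genes had few calls: of 343 genes named Zfp 29 were higher and 30 lower, and of 56 ZBTB, ZSCAN and ZKSCAN genes 4 were higher and 5 lower.

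Members of the MYC network and chromatin proteins differed in both directions. Myc was higher (47.8 and 112 CPM, log2 ratio 1.24, or 0.84 with the lineage markers left out of the scale). Its antagonists Mxd1 (391 and 8.21 CPM) and Mxd3 (37.3 and 1.503 CPM) were lower. Ribosome biogenesis had 12 higher genes of 34, none lower and a median of 0.79, led by Rrs1 (27.9 and 96.4 CPM). Translation initiation factors had 8 higher and 5 lower of 53, aminoacyl-tRNA synthetases 4 and 3 of 37, and splicing factors no higher and 4 lower of 53. Of 30 polycomb genes 2 were higher and 10 lower, including the methyltransferase Ezh2 (124 and 9.83 CPM) and the reader Cbx7 (38.6 and 6.28 CPM). Histone methyltransferases and demethylases had 4 higher and 4 lower of 53, histone deacetylases and sirtuins 1 and 5 of 18, and SWI/SNF and other remodellers 1 and 6 of 28. DNA methylation genes had 1 higher and 6 lower of 15. The maintenance genes were lower, with Dnmt1 at 349 and 111 CPM and Uhrf1 at 262 and 13.1 CPM, whereas the de novo enzyme Dnmt3a was higher at 53.7 and 177 CPM. Ezh2 and Uhrf1 are also known to follow cell division, and in M-BMDM with IL6 for 24 h they stood at 79.2 and 222 CPM. Whether cell division bears on the levels of Ezh2 and Uhrf1 here was not tested. High mobility group genes had 3 higher and 5 lower members of 12. Hmga2 (2.63 and 137 CPM) and Hmga1 (186 and 549 CPM) were higher, and Hmgb2 (883 and 74.2 CPM) and Hmgn2 (982 and 91.6 CPM) were lower. Hmga2, a chromatin protein of embryonic and growing tissue, was at 1.20 CPM in GM-BMDM. Clustered histone genes had 3 higher and 2 lower of 32, with a median of -1.40. The linker histone Hist1h1c was higher (101.5 and 467 CPM), and Hist1h4i was lower (21.0 and 8.38 CPM). The core histone domain of the deposited table had 1 higher and 10 lower of 51 genes.

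**Figure D4:**
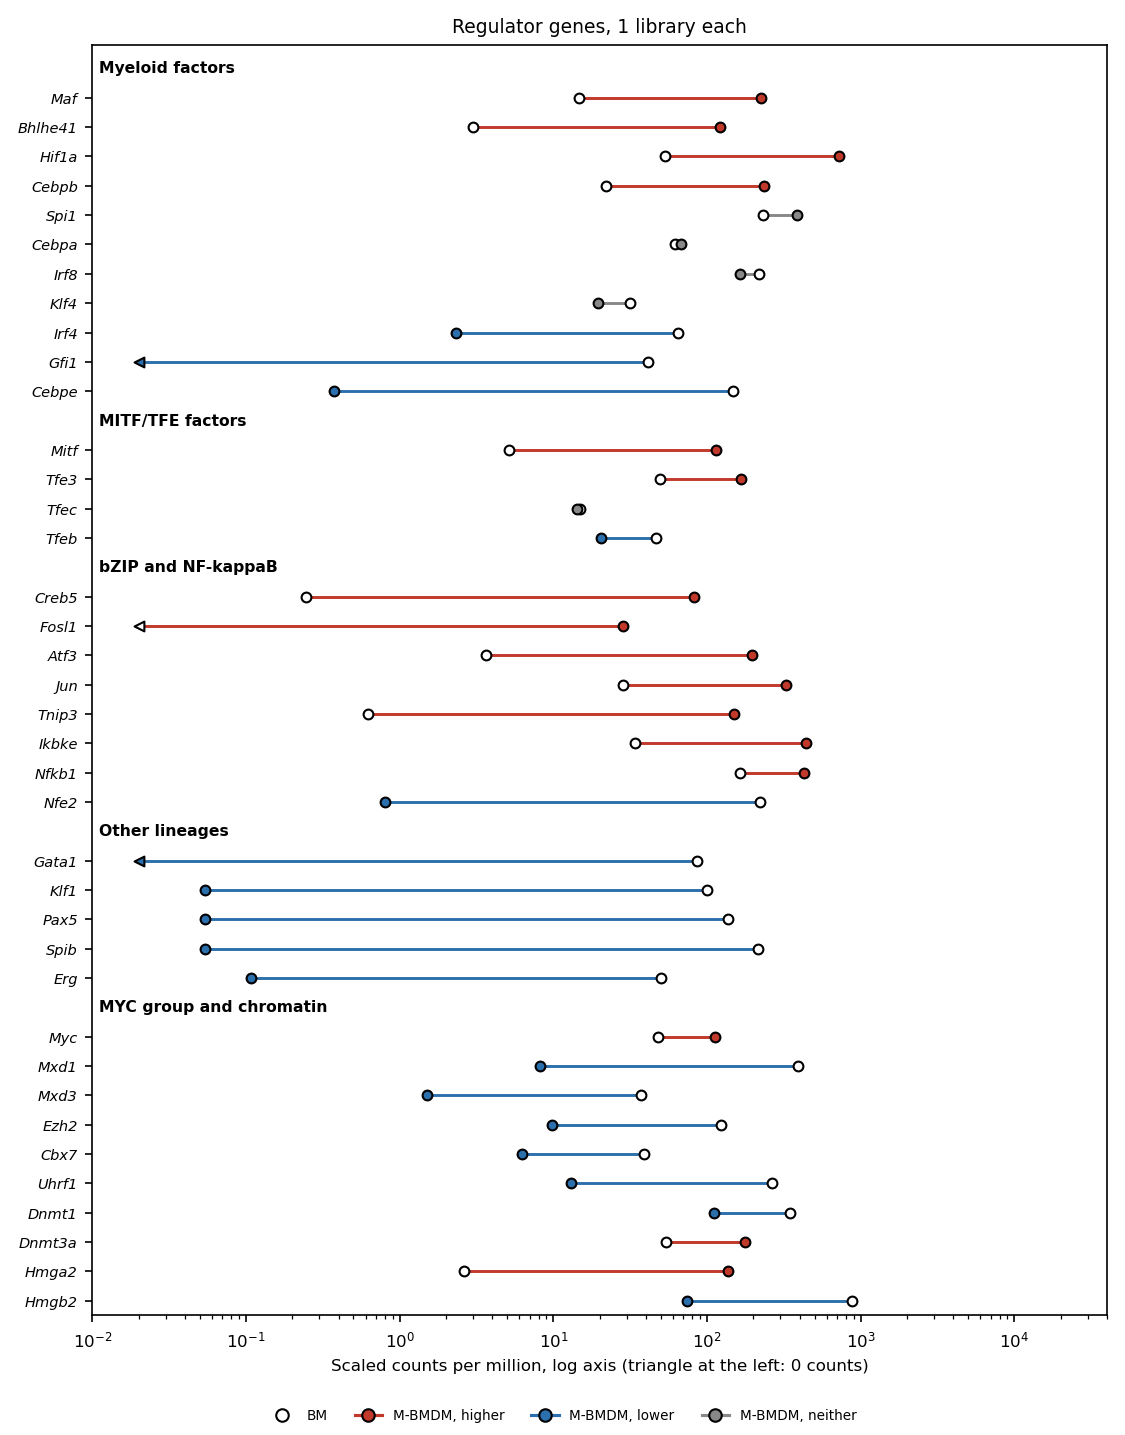
Scaled CPM on a log axis of 38 regulator genes in BM (open points) and M-BMDM (filled points; red where counted higher, blue where lower, grey where neither), 1 library each, with a triangle at the left edge for 0 counts. Spi1, Cebpa, Irf8, Klf4 and Tfec stay close together, while Gata1, Klf1, Pax5, Spib and Erg lie at or below 0.107 CPM in M-BMDM.

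Signalling inhibitors, traffic proteins and the cytoskeleton also differed. Of 14 SOCS, Sprouty and Spred inhibitors 6 were higher, led by Spred1 (17.2 and 243 CPM) and Socs3 (15.5 and 102 CPM), and 1 was lower. Dual-specificity phosphatases had 7 higher and 4 lower of 19, and the MAP kinase phosphatase Dusp4 had 1.399 and 164 CPM. Arhgap22, which acts on Rac, had 1 count in BM and 101 CPM in M-BMDM, with a log2 ratio of 11.26 (interval 8.78 to 16.56), while Arhgef18 was lower, at 122 and 2.31 CPM. Of 49 Rab GTPases 12 were higher and 9 lower (18.4%, against 17.6% over all genes): the endosomal Rab7b (5.55 and 241 CPM) and Rab20 (5.80 and 57.8 CPM) were among the higher, and the granule proteins Rab27a (144 and 2.20 CPM) and Rab44 (298 and 7.84 CPM) among the lower. Of 25 SNARE proteins 8 were higher and 4 lower, a lean that turned with either total-count scaling. Of 32 autophagy genes 4 were higher and 9 lower. The cargo receptor Sqstm1 was higher (166 and 1075 CPM) and the initiating kinase Ulk1 lower (76.8 and 12.8 CPM). Of 13 tubulins 9 were lower and 1 was higher, Tubb6 (2.92 and 196 CPM), and of 35 actin-binding genes 12 were higher and 5 lower, led by the podosome protein Sh3pxd2b (7.41 and 298 CPM). Kinesins had 6 higher and 13 lower genes of 32, with the mitotic Kif15 at 91.95 and 6.12 CPM. Annexins had 5 higher and 2 lower of 9, with Anxa4 at 12.8 and 301 CPM and Anxa1 at 1128 and 513 CPM.

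The remaining signalling lists had fewer or mixed calls. Kinases of the Src, Syk and Tec families and their adaptors had 4 higher and 9 lower genes of 30: the adaptor Lat2 had 27.7 and 182 CPM, and the B cell kinase Blk had 54.3 CPM and no count. RGS proteins had 1 higher gene of 13, Rgs1 (3.91 and 108 CPM), and 4 lower. Heterotrimeric G protein subunits had 7 higher and 3 lower of 24, a balance that turned at a fold limit of 4. Adenylyl cyclases and phosphodiesterases had 3 higher and 5 lower of 24, and TRIM proteins 10 higher and 11 lower of 44. Tyrosine phosphatases had 6 higher and 2 lower of 30, and sorting nexins and VPS proteins 14 higher and 4 lower of 62. Both of these balances turned with the lineage markers left out of the scale.

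What the cells secrete differed as well. Of 24 chemokines 14 were higher and 1 lower, with a median log2 ratio of 4.28. Ccl7, which attracts monocytes, had 3 counts in BM (0.123 CPM) and 138 CPM in M-BMDM, and Ccl2 had 0.823 and 321 CPM. The lower one was Cxcl12, and the receptors of Ccl2 and Cxcl12 were lower in the same library. Of 39 secreted growth factors 9 were higher and 5 lower: osteopontin (Spp1) had 19.0 and 4460 CPM, and Pdgfb had 6.62 and 201 CPM. Metalloproteinases and ADAM proteases had 9 higher and 10 lower of 38. The elastase Mmp12 (1.11 and 462 CPM) and the membrane protease Mmp14 (17.4 and 309 CPM) were higher, and the neutrophil granule protease Mmp8 was lower (860 and 9.61 CPM). Of 47 collagens and matrix proteins 6 were higher and 19 lower. Col18a1 (0.987 and 188 CPM) was higher, and the bone collagen genes Col1a1 (231 and 10.2 CPM) and Col1a2 (240 and 4.67 CPM) were lower. Serpins, cystatins and stefins had 7 higher and 12 lower of 37, with Serpinb8 at 0.658 and 74.7 CPM and the neutrophil protease inhibitor Serpinb1a at 303 and 0.215 CPM.

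Outside all lists, the highest ratios belonged to genes of unlike roles. Npy, a neuropeptide, had 2 counts in BM and 157 CPM in M-BMDM, with a log2 ratio of 10.90 (interval 9.05 to 13.95). Gpnmb, a membrane glycoprotein of lysosome-rich cells, had 4.48 and 6359 CPM, 1418-fold higher, and was among the most abundant transcripts of M-BMDM. The acute-phase gene Saa3 followed, at 0.0823 and 86.1 CPM. The endocytic adaptor Dab2 (2.80 and 672 CPM) and the aminopeptidase Anpep (2.26 and 867 CPM) were also among the 15 highest, below Tmem171, Creg2 and Dagla, each of which had 1 count in BM. Of all genes, Lyz2, the lysozyme of myeloid cells, was among the 10 with the largest rise in CPM, from 5175 to 26030. The lowest ratio outside the lists was that of Chil3, a chitinase-like protein of neutrophils and some macrophages, with 2286 CPM in BM and 0.215 CPM in M-BMDM. It stood at 982 CPM in GM-BMDM. The eosinophil ribonuclease genes Ear1, Ear2 and Ear6, the band 4.2 gene Epb42 and the neutrophil surface gene Cd177 were also among the 15 lowest, the Ear genes being near-identical copies.

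The 3 M-BMDM libraries were not replicates of each other, since 2 had IL6, and their levels are set beside each other here. After 3 h of IL6 Slc2a1 stood at 429 CPM, Acod1 at 1377 CPM and Clec4e at 1050 CPM. After 24 h Slc2a1 stood at 52.4 CPM, Acod1 at 28.9 CPM, Slc7a2 at 13.4 CPM and Clec4e at 76.2 CPM, all between BM and M-BMDM. Fosl1 (0.581 CPM), Ccl7 (8.84 CPM), Hif1a (113 CPM), Gpr84 (16.3 CPM) and Ch25h (1.62 CPM) also lay between them at 24 h. Trem2 (644 CPM), Stab1 (1084 CPM) and Maf (283 CPM) did not come closer to BM at that time. GM-BMDM held Mertk at 71.2 CPM, Maf at 28.0 CPM and Stab1 at 50.04 CPM. No test was possible with 1 library a group, and whether these libraries share their starting cells is not given.

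**Figure D5:**
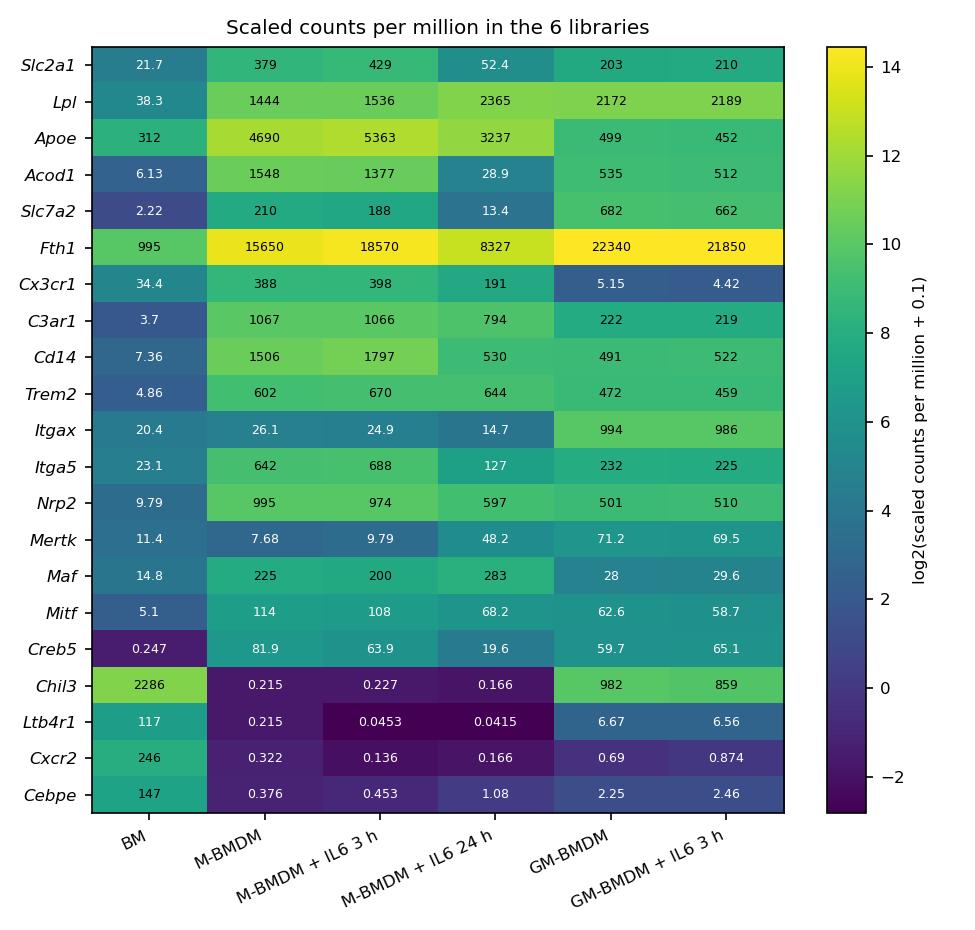
Scaled CPM of 21 genes in each of the 6 libraries, printed in the cells and coloured by log2 of the value plus 0.1. Slc2a1, Acod1 and Slc7a2 are high in M-BMDM and in M-BMDM with IL6 for 3 h and lower at 24 h, Itgax is high only in the GM-BMDM pair among these libraries, and Cxcr2 and Cebpe are high in BM.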

How the data were processed

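The data were RNA sequencing counts of 6 libraries, of which BM and M-BMDM were compared. The deposited table of the authors held 1 expected count per gene and library: 27.7% of the values above 0 in BM and 25.0% in M-BMDM were not whole. HISAT2, StringTie, DESeq2 and the GRCm38 build come from the submitters' processing notes. Versions, settings and the use of strand in counting are not given in the sources read. The expected counts were rounded. The 742 rows without a gene name (0.522% of the counts of BM, 0.3% of M-BMDM) were left out. Antisense and overlapping genes and near-identical copies are uncertain.

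CPM are counts scaled by TMM over the 6 libraries (edgeR 4.0.16, R 4.3.3). Genes needed 1 CPM in any library, for this filter scaled by total counts without TMM. Ratios have exact 95% Clopper-Pearson intervals (conditional binomial, scipy 1.17.1). Without molecular identifiers, reads copied by PCR are not independent, so intervals and bounds cover counting error only. For a gene with 0 counts in 1 library, the fold was bounded with 3 counts there. List medians use a prior count of 2. TPM were computed from the rounded counts and the gene lengths in the deposited table. The calculation was tested on simulated data.

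The comparison and its 112 gene lists were chosen with earlier results of these data known, so lists are described by counts and medians without a test. The naming rule took the 2 highest and 2 lowest counted members of each list with at least 10 CPM, the 15 highest and lowest outside the lists, the 10 largest rises and falls in CPM, and 33 fixed genes. The text gives part of these, and a few genes and 1 list are not reported here. Other members were named after their values were seen. Pathway and protein domain terms of the deposited table with at least 20 analysed genes were added after seeing the file. Alternatives changed the scaling, fold limit, CPM limit, filter and interval, removed trends with GC content or length, or used edgeR's quasi-likelihood fit and DESeq2 (1.42.0) of all 6 libraries at an adjusted p of 0.05. Promoters came from RefSeq (GRCm38.p6).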

Additional observations from a re-analysis of the deposited data

How the results depend on the processing

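No paired analysis was possible because each group had 1 library. The main counts were 2260 higher and 2587 lower genes. A fold limit of 1.5 gave 3405 higher and 3498 lower, and a limit of 4 gave 945 and 1596. A limit of 1 CPM in the higher library gave 2817 and 3881, and 20 CPM gave 1690 and 1663. Total counts gave 1913 and 3002, and total counts without lineage markers 1557 and 3622. DESeq2 size factors, upper-quartile factors, no interval, other filters, removed GC or length trends and both fits of all 6 libraries gave from 2145 to 2318 higher and from 2451 to 2707 lower. Those fits borrow the spread of the lone BM library from cultured libraries, so their p-values are not printed.

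The balance of higher minus lower members turned in 10 of the lists whose main calls in 1 direction were at least 2-fold those in the other. Lists with a smaller excess or few calls were not counted here, whether or not their balance turned. Such an excess did not always stand above the shares over all genes. In fatty acid oxidation 13.8% of genes were higher, against 15.4% over all analysed genes, with a median log2 ratio of -0.204. With lineage markers left out of the scale the balance was -1 for the mitochondrial ribosome, -1 for mitochondrial protein import and -5 for fatty acid oxidation. In the same setting it was -3 for tyrosine phosphatases, -3 for sorting nexins and VPS proteins and -2 for SNARE proteins. With total counts it was -1 for fatty acid oxidation and -1 for SNARE proteins. At a fold of 1.5 it was -1 for fatty acid oxidation, and at a fold of 4 it was -1 for fatty acid oxidation, -1 for tyrosine phosphatases and -1 for G protein subunits. At 1 CPM it was -1 for Notch and Wnt genes and -2 for tyrosine phosphatases. At 20 CPM it was 1 for C-type lectins and -1 for nuclear receptors. The cause was not tested. Of 410 named genes, 406 kept their call or stayed within their counting interval with total counts as the scale. With lineage markers left out of the scale 394 did so. A gene counted as neither could change sign and still be among them.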

Other observations

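Among the annotations in the deposited table, the pathway terms with the largest shares of higher genes were mineral absorption, with 18 higher and 5 lower of 32 analysed genes, prion diseases, with 12 higher and 2 lower of 24, and the lysosome, with 64 higher and 12 lower of 130. Pentose and glucuronate interconversions had 10 higher and none lower of 23. The largest shares of lower genes were in DNA replication (29 of 36), mismatch repair (17 of 22), the Fanconi anaemia pathway (28 of 51) and homologous recombination (21 of 39), with none higher in these 4. The term for haematopoietic cell lineage had 62 lower and 17 higher of 151. Oxidative phosphorylation had 13 higher and 2 lower of 132, a term that also holds proton pump genes. These are descriptions of 263 pathway terms, all tabulated, with no test.

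Among protein domain terms, which overlap the lists, the PSI domain of plexins and semaphorins had 13 higher and 6 lower of 24 genes. The chemokine domain had 13 higher and 2 lower of 26. The Ras domain had 48 higher and 24 lower of 147, and the C1-set immunoglobulin domain had 12 higher and 28 lower of 60.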
